A study of Rattus norvegicus with 102 samples.

Results

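The genes described here were 9 members of the cholinergic system of the rat hippocampus. They were the muscarinic acetylcholine receptors Chrm1, Chrm2, Chrm3 and Chrm4, the nicotinic receptor subunits Chrna4, Chrna5, Chrna7 and Chrnb2, and acetylcholinesterase, Ache. Members were the rows of the deposited tables whose gene symbol equalled 1 of these names, which gave 10 of 26284 rows, since Chrm2 had 2 identifiers. Their levels were compared between the subfields CA1, CA3 and dentate gyrus (DG), between ages, and between aged rats that differed in water-maze performance. All rats were male Fischer 344 rats. Young rats (title suffix Y, n = 10) were 5 to 6 months old. Aged rats were 17 to 22 months old and were labelled unimpaired (suffix OG, n = 12) or impaired (suffix OB, n = 12). Each of the 34 rats gave 1 library per subfield in each table. Per the study's methods the tissue came from 1 hippocampus of each rat, was cut by hand, and neither CA2 nor the subiculum was collected as a piece of its own.

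Acetylcholine reaches the hippocampus mainly through axons of neurons in the medial septum and diagonal band, so that most of the receptors made in the hippocampus receive transmitter made elsewhere. Muscarinic receptors are coupled to G proteins, Chrm1 and Chrm3 to Gq and phospholipase C, Chrm2 and Chrm4 to Gi and lowered cyclic AMP. Nicotinic receptors are pentameric ion channels, which Chrna7 can form alone, and which Chrna4 and Chrnb2 form together with or without the accessory subunit Chrna5. Ache splits acetylcholine in the synaptic cleft. Cholinergic loss is a known feature of the aged brain.

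All values are normalised reads of the poly-A Illumina table, which is the count divided by a size factor per library, unless the poly-A Ion Proton table is named. Values were not scaled by gene length, so levels were compared between libraries and not between genes. Log2 changes are differences of means of log2(value + 1), given with a standard error (SE). A gene was called between subfields when its limma adjusted p was under 0.05 with the same sign in both tables. For age and cognition a call needed an unadjusted p under 0.01 in the Illumina table and a one-sided p under 0.05 with the same sign in the Ion Proton table. The RNA of both tables came from the same rats, so a call in both does not add animals. In bulk tissue, fewer cells of a type and less RNA per cell cannot be told apart.

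The identifiers were ENSRNOG00000018385 for Chrm1 on chromosome 1, ENSRNOG00000011928 and ENSRNOG00000046972 for Chrm2 on chromosome 4, ENSRNOG00000049410 for Chrm3 on chromosome 17, and ENSRNOG00000017556 for Chrm4 on chromosome 3. They were ENSRNOG00000011202 for Chrna4 on chromosome 3, ENSRNOG00000013610 for Chrna5 on chromosome 8, ENSRNOG00000010853 for Chrna7 on chromosome 1, ENSRNOG00000020778 for Chrnb2 on chromosome 2 and ENSRNOG00000050841 for Ache on chromosome 12. The tables gave no positions. In the RefSeq annotation of GRCr8, a later build than the rn5 of the tables, Chrna5 stood next to Chrna3 and Chrnb4, the subunit genes with which it forms a known cluster. In the same annotation Chrm4 overlapped Mdk, Chrna4 overlapped Col20a1, Chrna5 overlapped a pseudogene, Ache overlapped Ufsp1 and a long noncoding RNA, and Chrm2 and Chrm3 each overlapped a long noncoding RNA. The strand setting of the counting was not given, so these members may share reads with their neighbours.

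Promoter sequence is shown for Chrna4 and Chrna5, which were both lower in DG than in CA1, and for Chrna7, which was lowest in CA1. Each line gives the 250 bases before the RefSeq start, 5′ to 3′ on the gene's strand in GRCr8. Capitals mark GGGCGG or its reverse complement, the core of the GC box.
Chrna4, chr3:188534527-188534776, minus strand: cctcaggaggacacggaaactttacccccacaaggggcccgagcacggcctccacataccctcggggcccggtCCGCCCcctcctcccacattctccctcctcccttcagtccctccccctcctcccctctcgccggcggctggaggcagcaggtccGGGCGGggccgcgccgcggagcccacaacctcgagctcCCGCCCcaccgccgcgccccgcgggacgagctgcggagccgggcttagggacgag
Chrna5, chr8:64265629-64265878, plus strand: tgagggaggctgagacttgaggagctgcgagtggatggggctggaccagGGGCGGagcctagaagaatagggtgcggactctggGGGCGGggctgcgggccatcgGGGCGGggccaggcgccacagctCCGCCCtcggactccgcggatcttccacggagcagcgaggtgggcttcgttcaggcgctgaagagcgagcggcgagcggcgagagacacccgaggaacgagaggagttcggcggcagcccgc
Chrna7, chr1:126249130-126249379, minus strand: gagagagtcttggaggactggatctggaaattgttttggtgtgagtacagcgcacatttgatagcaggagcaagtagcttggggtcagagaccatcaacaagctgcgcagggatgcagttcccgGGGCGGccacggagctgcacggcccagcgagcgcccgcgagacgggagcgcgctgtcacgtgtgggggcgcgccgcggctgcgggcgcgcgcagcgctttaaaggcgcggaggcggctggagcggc
The Chrna5 window held 4 GC boxes and 26 CG pairs at 70.4% G or C. The Chrna4 window held 3 and 26 at 74.4%, and that of Chrna7 held 1 and 27 at 66%. GGGCGG on either strand was found in 30.5% of 33469 rat promoter windows of this length, and the median window held 5 CG pairs. All members but Chrm1 held a GC box, and no member held TATAAA, which was found on either strand in 12.9% of windows. Such a match describes the letters and does not show a binding site.

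Libraries held between 3.25 and 42.8 M reads on the Illumina and between 4.47 and 21.4 M on the Ion Proton. The rats carried numbers in 2 ranges, 18 below 9000 and 16 from 9000 up, called the lower and upper series here. Each series held all groups, with 5 young rats in either, 6 unimpaired rats in either, and 7 impaired rats in the lower and 5 in the upper. The study's methods name 2 sites, Florida and Arizona, with a different supplier of rats at each. The numbers of young and aged rats given for Florida equalled those of the lower series, and those for Arizona the upper. No label ties a rat to a site, so whether a series corresponds to a site is not given by the labels. Summed subfield markers were highest in the subfield they name, with a median sum of CA1 pyramidal markers of 15463.5 in CA1, of CA3 pyramidal markers of 18078.4 in CA3, and of dentate granule markers of 5109 in DG. Of 7 CA3 pyramidal markers tested, only Nnat was called higher in CA3 than in DG (median log2 change of the list 0.05), while 5 of 6 dentate granule markers were called lower. By these markers, 11 libraries were nearer to another subfield than to their own in both tables. They were 1 labelled CA1, 6 labelled CA3 and 4 labelled DG, they came from 8 rats, and 7 of these rats belonged to the upper series. Results of the members are therefore also given within each series and without these 11 libraries. Calls of single genes outside the members are given with all libraries only, and were not split by series.

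Of the 9 members, 8 had a mean of at least 10 normalised reads and were tested. Between CA1 and CA3, 3 of the 8 were called, against 14.4% of 13907 genes tested in both tables. Between CA1 and DG it was 5 members against 26.9% of genes, and between CA3 and DG 5 members against 28.5%. The median absolute log2 change of the members was 0.27 between CA1 and CA3, 0.39 between CA1 and DG and 0.31 between CA3 and DG, and over all genes it was 0.09, 0.13 and 0.13. Nicotinic subunits showed the largest differences, with Chrna5 and Chrna4 lower in DG than in CA1 and Chrna7 lowest in CA1. Without the 11 libraries nearer to another subfield, every one of these calls held, and Chrna7 (-0.26) and Chrnb2 (0.16) were called in CA3 against DG as well.

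**Figure D1:**
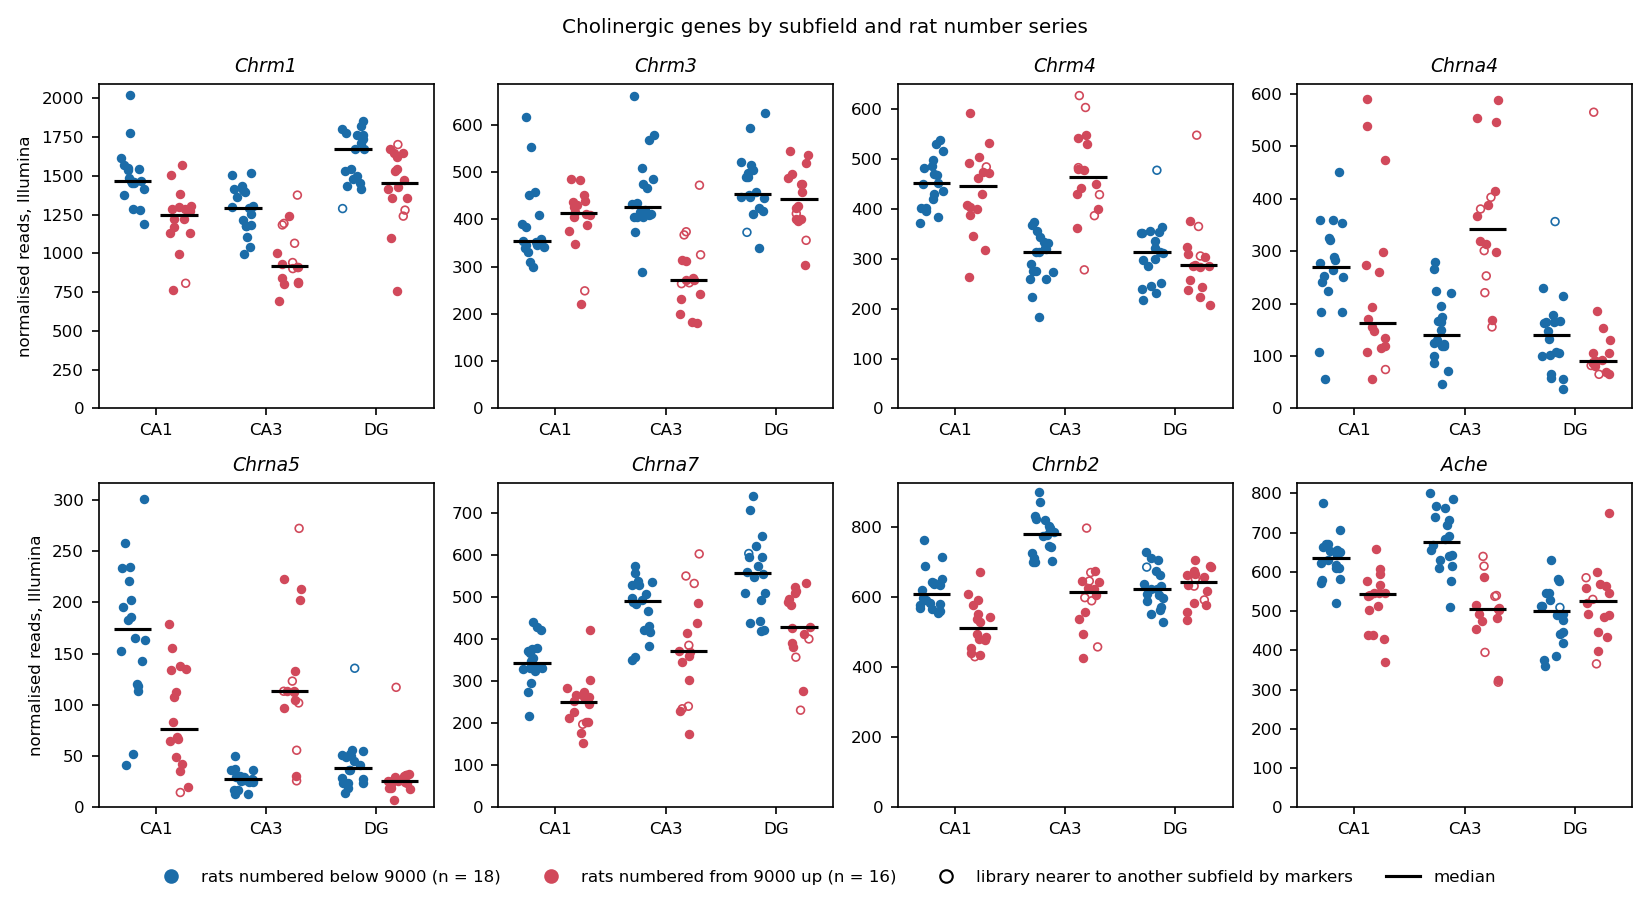
Normalised reads (Illumina, vertical axis) of 8 cholinergic genes in every library by subfield, with rats numbered below 9000 in blue and from 9000 up in red. Black lines are medians and open circles are libraries nearer to another subfield by markers. Chrna5 in CA3 had a median of 27.4 in blue and 113 in red.

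Among muscarinic receptors, Chrm1, the main Gq-coupled receptor of hippocampal principal cells, was lower in CA3 than in DG. Its level ran from 762 to 2022 with a median of 1378 in CA1, from 693 to 1518 with a median of 1181 in CA3, and from 759 to 1854 with a median of 1538 in DG. The subfield ranges overlapped, but within rats CA3 was below DG in 33 of 34. CA3 against DG gave a log2 difference of -0.44 (limma adjusted p = 2.28e-08, SE 0.067), and in the Ion Proton table it was -0.28 (adjusted p = 0.018). Its level in CA1 exceeded that in CA3 in the Illumina table (log2 change 0.26, adjusted p = 9e-04) but missed the threshold in the Ion Proton table (0.18, adjusted p = 0.191). CA3 against DG was -0.34 in the lower series and -0.54 in the upper, and the Ion Proton value of the lower series missed the threshold (-0.23, adjusted p = 0.133).

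Chrm3, also coupled to Gq, was highest in DG. Levels ran from 221 to 616 with a median of 389 in CA1, from 181 to 661 with a median of 389 in CA3, and from 303 to 624 with a median of 455 in DG. DG was above CA1 in 23 of 34 rats and above CA3 in 25 of 34. On the log2 scale the difference was -0.23 (limma adjusted p = 0.0136, SE 0.082) for CA1 against DG and -0.35 (SE 0.082, adjusted p = 0.000176) for CA3 against DG, with -0.31 and -0.35 in the Ion Proton table. CA1 against DG was called in the lower series (-0.28) but not in the upper (-0.17, adjusted p = 0.217), and by the WT values alone it missed the threshold (-0.12, adjusted p = 0.115). The series parted in CA3, where the median was 426 in the lower and 272 in the upper. CA3 against DG was -0.06 in the lower series (adjusted p = 0.522) and -0.67 in the upper (adjusted p = 3.62e-06). Chrm3 in CA1 was lower than in CA3 within the lower series (-0.22) and higher within the upper (0.50), and both were called.

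Chrm4, the Gi-coupled receptor also known from cholinergic and striatal neurons, was higher in CA1 than in DG. Levels ran from 264 to 592 with a median of 452 in CA1, from 183 to 627 with a median of 358 in CA3, and from 208 to 548 with a median of 302 in DG. CA1 was above DG in 31 of 34 rats in either table. CA1 against DG gave 0.55 on the log2 scale (limma adjusted p = 5.43e-09, SE 0.078), with 0.54 in the Ion Proton table, and it was called in both series (0.55 and 0.54). CA1 against CA3 (0.27) missed the threshold in the Ion Proton table (adjusted p = 0.194), and was 0.60 in the lower series, where it was called, and -0.10 in the upper. CA3 against DG was called over all rats (0.27, adjusted p = 0.00189), but was -0.05 in the lower series and 0.63 in the upper. The Chrm4 median in CA3 was 313 in the lower and 463 in the upper, while in CA1 the medians were 452 and 447. Striatum markers, whose part in this was not tested, also stood higher in CA3 of the upper series, with a summed median of 1775 against 1045.

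Chrm2, the Gi-coupled receptor found on cholinergic axons and on interneurons, was at the limit of detection in the Illumina table. Its 2 identifiers together had 6 reads, in 6 libraries, among 1616 M reads. In the WT table they had 11 reads in 10 libraries. The Ion Proton table in contrast held 1288 reads in 100 libraries, with a median of 9 reads per library and 63 in the highest. There the first identifier had a median of 9.40 normalised reads for CA1, 6.30 for CA3 and 3.83 for DG, and the second 4.79, 3.80 and 1.89. CA1 was above DG in 25 and 24 of 34 rats for the respective identifiers. These counts lay below the minimum mean for a test, so no subfield test was made for Chrm2, and why the tables differ was not tested.

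Chrna5, the accessory nicotinic subunit, had the largest subfield difference of all members. In CA1 its level ran from 14.5 to 301 with a median of 135, in CA3 from 12.9 to 272 with a median of 36.2, and in DG from 7.36 to 136 with a median of 29.3. CA1 was above DG in 31 of 34 rats and above CA3 in 24 of 34. Against DG, Chrna5 in CA1 was 3.35-fold higher, or 1.74 on the log2 scale (limma adjusted p = 3.83e-09, SE 0.25), with 1.84 in the Ion Proton table (adjusted p = 1.8e-06). Against CA3 it was 2.09-fold higher, or 1.06 on the log2 scale (adjusted p = 0.000295, SE 0.25), with 1.31 in the Ion Proton table (adjusted p = 0.00128). With DESeq2 on the recovered reads this call was lost, at 0.83 in the Illumina (adjusted p = 0.00208) and 0.75 in the Ion Proton table (adjusted p = 0.0511). Subiculum markers were also called higher in CA1, 3 of 3 tested against DG and 2 of 3 against CA3 (median log2 changes 1.38 and 1.01). All 6 CA1 pyramidal markers tested were called higher in both comparisons, and the part of either list was not tested.

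The difference of Chrna5 between CA1 and CA3 was not the same in the 2 series. In the lower series its level in CA1 ran from 41.5 to 301 with a median of 174, and in CA3 from 12.9 to 49.9 with a median of 27.4. Only the lowest CA1 values of this series reached those of its CA3 libraries. The difference was 2.53 on the log2 scale (limma adjusted p = 2.03e-15, SE 0.21), and 2.85 in the Ion Proton table. In the upper series CA1 ran from 14.5 to 179 with a median of 76.0 and CA3 from 25.9 to 272 with a median of 113, so that CA3 was the higher. There the log2 change of -0.58 did not pass the test (adjusted p = 0.222), and without the libraries nearer to another subfield it was again -0.58 (adjusted p = 0.178), with the CA3 median still 113. The difference between the series, in a test chosen after these data were seen, was -3.11 (95% interval -3.86 to -2.36, adjusted p = 6.55e-11), and -3.26 in the Ion Proton table. CA3 against DG was not called over all rats (0.68, with 0.53 and an adjusted p of 0.203 in the Ion Proton table). It was -0.51 in the lower series, with CA3 the lower, and 2.01 in the upper, and both were called, the first only with the libraries nearer to another subfield (-0.40 without them).

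Chrna4, the main partner of Chrnb2 in high-affinity nicotinic receptors, showed a similar split. Its level ran from 56.3 to 590 with a median of 252 in CA1, from 46.0 to 588 with a median of 221 in CA3, and from 37.8 to 565 with a median of 105 in DG. CA1 was above DG in 29 of 34 rats and CA3 above DG in 27. Log2 differences were 0.90 (limma adjusted p = 8.18e-05, SE 0.20) for CA1 against DG and 0.87 (SE 0.20, adjusted p = 0.000124) for CA3 against DG, with 1.08 and 0.97 in the Ion Proton table. CA1 against DG was called in both series (0.97 and 0.81). In CA3 the median was 140 in the lower series and 343 in the upper, and CA3 against DG was 0.18 in the lower (adjusted p = 0.512) and 1.64 in the upper (adjusted p = 5.67e-06). CA1 against CA3 was called in the lower series (0.79), and in the upper it was -0.83 (adjusted p = 0.0302), where the Ion Proton value missed the threshold (-0.66, adjusted p = 0.21).

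Chrna7, the subunit of the calcium-permeable homomeric receptor, had the reverse order. It ran from 153 to 440 with a median of 299 in CA1, from 174 to 603 with a median of 435 in CA3, and from 231 to 741 with a median of 502 in DG. CA1 was the lower in 31 of 34 rats against CA3 and in 32 of 34 against DG. On the log2 scale CA1 stood at -0.51 (limma adjusted p = 4.47e-06, SE 0.093) against CA3 and -0.73 (SE 0.093, adjusted p = 1e-10) against DG, with -0.46 and -0.72 in the Ion Proton table. Against DG it was called in both series (-0.67 and -0.80). Against CA3 it was -0.45 in the lower series, where the Ion Proton value missed the threshold (-0.31, adjusted p = 0.0612), and -0.57 in the upper, where it was called. CA3 against DG was not called (-0.22, Ion Proton adjusted p = 0.0793), but was called with the rat as a block and without the libraries nearer to another subfield.

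Chrnb2, the beta subunit of most heteromeric receptors in brain, was lower in CA1 than in CA3. Levels ran from 430 to 763 with a median of 578 in CA1, from 428 to 901 with a median of 702 in CA3, and from 529 to 729 with a median of 632 in DG. CA1 was below CA3 in 28 of 34 rats in either table, at -0.27 on the log2 scale (limma adjusted p = 4.7e-06, SE 0.049) and -0.29 in the Ion Proton table (adjusted p = 0.0124). In the lower series it was -0.33 and called, and in the upper -0.20, where the Ion Proton value missed the threshold (-0.21, adjusted p = 0.227). CA3 against DG (0.12) missed the threshold in the Ion Proton table (adjusted p = 0.0621) and was called with the rat as a block (adjusted p = 0.0177). It was 0.31 in the lower series and -0.09 in the upper, a difference of -0.40 (adjusted p = 5.06e-06) that was not called in the Ion Proton table (-0.22, adjusted p = 0.383).

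Ache, the enzyme that ends transmission, had 1 called difference. Levels ran from 371 to 777 with a median of 589 in CA1, from 319 to 801 with a median of 612 in CA3, and from 359 to 750 with a median of 511 in DG. CA3 was above DG in 23 of 34 rats, at 0.21 on the log2 scale (limma adjusted p = 0.00328, SE 0.064) and 0.27 in the Ion Proton table (adjusted p = 0.0348). This call was lost when any of 10 rats was left out and when genes of low value were kept in the test. It was 0.48 in the lower series and -0.08 in the upper, where the CA3 median was 505 against 676 in the lower.

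**Figure D2:**
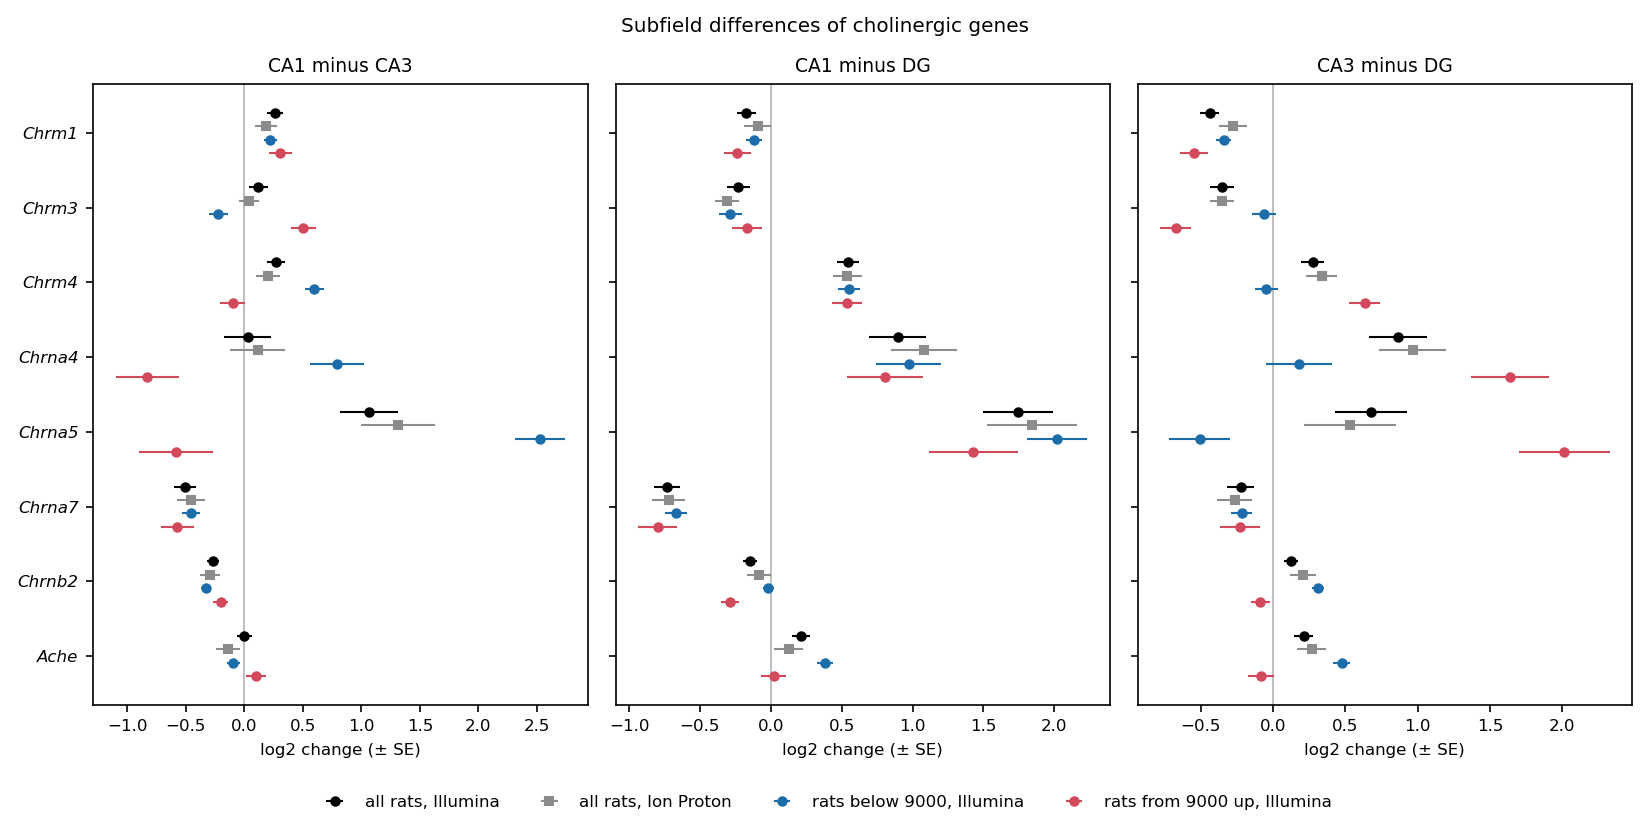
Log2 change (horizontal axis, bars are SE) of 8 cholinergic genes between subfields over all rats in both tables, and within each number series in the Illumina table. Chrna5 in CA1 against CA3 was 2.53 in rats below 9000 and -0.58 in rats from 9000 up, while in CA1 against DG it was 2.02 and 1.43.

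Tested over all members, the series differed for Chrna5, Chrna4 (-1.62) and Chrm3 (0.73) in CA1 against CA3, 3 of 8 members where 13.9% of genes did so. In CA3 against DG they differed for Chrna5 (2.52), Chrna4 (1.46), Chrm4 (0.68) and Chrm3 (-0.61), 4 of 8 against 17.2% of genes. In CA1 against DG the count was 0 of 8 members and 0.108% of genes. Within the series taken alone, Chrm4, Chrna4, Chrna5 and Chrna7 were called with the same sign in both between CA1 and DG, 4 of 8 members where 8.28% of genes were. Between CA3 and the other subfields no member was, where 1.13% of genes were so called in CA1 against CA3 and 5.49% in CA3 against DG.

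Markers of other subfields and of other cell types moved with the series in CA3. The CA1 pyramidal list had 8 genes, of which 7 were found, and its summed level in CA3 libraries ran from 1655 to 8263 with a median of 4060 in the lower series, and from 3231 to 14012 with a median of 7667 in the upper. The sum of 4 subiculum markers had medians of 1033 and 2121, that of dentate granule cells 649 and 1022, and that of CA3 pyramidal cells 19074 and 13735. The part of these markers in the results was not tested. Oligodendrocyte markers had medians of 157223 and 111604, choroid plexus markers of 185 and 457, and interneuron markers of 7699 and 7647. Striatum markers ran from 902 to 1339 in the lower and from 1198 to 2643 in the upper series, and endothelium markers had medians of 1195 and 1859. The series also differed in the other subfields, where oligodendrocyte markers stood mostly higher in the upper series. In CA1 they ran from 73029 to 147978 in the lower and from 104037 to 287889 in the upper. In DG they ran from 44402 to 79008 in the lower and from 66288 to 214189 in the upper. Markers of the medial habenula and thalamus, which border the hippocampus and express several nicotinic subunits strongly, summed to 221 to 1346 in CA1 libraries, to 250 to 1139 in CA3 libraries and to 258 to 1284 in DG libraries. Markers of cholinergic neurons summed to 4.48 to 284 in CA1 libraries, to 2.98 to 96.4 in CA3 libraries and to 4.84 to 326 in DG libraries, and Lhx8 and Isl1 of that list had a median of 0 in each subfield.

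**Figure D3:**
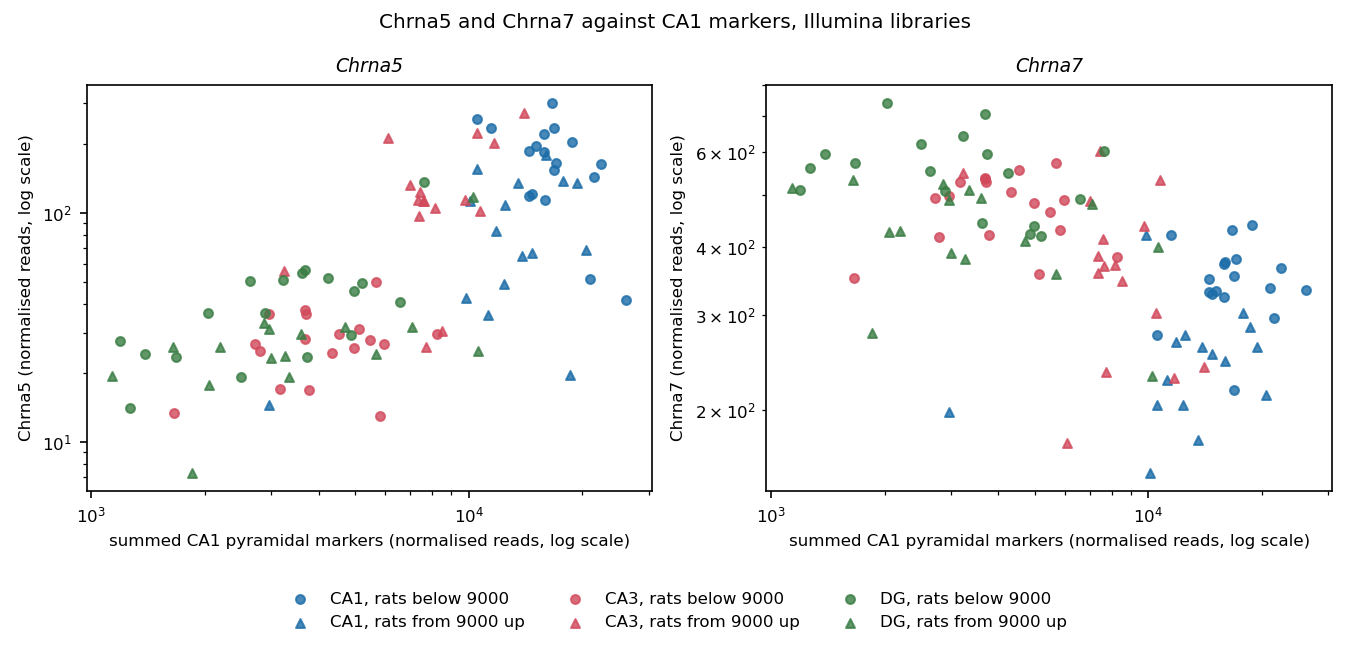
Chrna5 and Chrna7 (vertical axis, normalised reads, log scale) against the summed level of CA1 pyramidal markers (horizontal axis, log scale) in all Illumina libraries, coloured by subfield, with circles for rats below 9000 and triangles for rats from 9000 up. CA3 triangles lie mostly to the right of CA3 circles, with median marker sums of 7667 and 4060.

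The genes whose levels ran most like those of a member over all Illumina libraries were sought among 13882 genes. For Chrna5 they were Nxph3 (Pearson r = 0.94, and 0.79 in the Ion Proton table) and Cftr (0.90 and 0.76). For Chrna4 they were Rassf5 (0.92 and 0.78) and Rgs4 (0.89 and 0.70), a regulator of G protein signalling. Chrna7 ran most like Syn2 (0.90 and 0.71), a synaptic vesicle protein, and Slit1 (0.89 and 0.67), and Chrnb2 like Kif3c (0.87 and 0.67) and Clstn3 (0.87 and 0.89). Among muscarinic receptors, Chrm1 ran most like Brinp1 (0.92 and 0.67) and Nptn (0.90 and 0.69), Chrm3 like Epha5 (0.86 and 0.36) and Zfp238 (0.81 and 0.73), and Chrm4 like Rnd1 and Casp9 (both 0.82, with 0.68 and 0.69). Ache had the least close neighbours, Gfra1 (0.76 and 0.40) and Bcat1 (0.73 and 0.75). All points share the subfields, series and depth of the libraries, so these values are descriptions only.

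Among 13 other acetylcholine receptor subunits, 4 were tested between subfields and 1 was called, in CA1 and in CA3 against DG, where 26.9% and 28.5% of all genes were. This was Chrm5, the Gq-coupled receptor of low abundance, with a median of 105 for CA1, 90.8 for CA3 and 35.1 for DG. Its log2 change was 1.31 in CA1 and 1.01 in CA3 against DG (limma adjusted p = 6.18e-08 and 1.55e-05). Chrna2, a subunit typical of interneurons of the stratum oriens, had medians of 89.3, 110 and 99.9 in the same order and was not called. The remaining tested subunits, Chrnb1 (9.91, 11.5 and 7.92) and Chrne (12.98, 14.04 and 14.38), were not called either. Chrna3, the neighbour of Chrna5, and Chrnb4 did not reach the minimum in both tables and were not tested between subfields. In the Illumina table Chrna3 had medians of 19.9, 11.1 and 3.22, and Chrnb4 of 8.64, 9.73 and 5.83.

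Of 7 genes of acetylcholine synthesis, transport and breakdown, 4 were tested, and Slc44a1 and Prima1 were called, both higher in CA1 and CA3 than in DG, where 26.9% and 28.5% of all genes were called. Prima1, which anchors Ache in neuronal membranes, had a median of 259 for CA1, 257 for CA3 and 136 for DG, with log2 changes of 0.73 and 0.86 against DG. For Slc44a1, a choline transporter, they were 0.42 and 0.58. All 6 oligodendrocyte markers were also called higher in CA1 and CA3 than in DG (median log2 changes 0.69 and 0.85). Their part in the results of Prima1 and Slc44a1 was not tested. Chat, the enzyme that makes acetylcholine, had medians of 1.33, 0.472 and 0.186, and the choline transporter Slc5a7 of cholinergic axons had medians of 12.4, 10.2 and 12.0. Bche, the second cholinesterase, with medians of 47.1, 47.0 and 38.4, was not called.

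Of 10 chaperones and modulators of nicotinic receptors, 8 were tested, and 2 were called between CA1 and CA3 (14.4% of all genes), 5 between CA1 and DG (26.9%) and 3 between CA3 and DG (28.5%). Tmem35, a gene needed for Chrna7 receptors to assemble, was lowest in CA1, at -0.91 on the log2 scale against CA3 and -0.61 against DG (limma adjusted p = 2.33e-15 and 2.47e-09). Against CA3 the second gene called was Lynx1 (-0.36), and against DG Ly6e (-0.51), Ric3 (-0.24) and Ly6h (-0.18) were lower and Lypd6b (0.38) higher. CA3 exceeded DG in Lypd6 (0.42), Tmem35 (0.31) and Lynx1 (0.25). Among 17 genes of muscarinic signalling, all tested, 5 were called between CA1 and CA3 (14.4% of all genes), 8 between CA1 and DG (26.9%) and 9 between CA3 and DG (28.5%). The largest change was that of Kcnq5, a subunit of the M-current channel that muscarinic receptors close, at -1.43 in CA1 against CA3 and -1.22 against DG. Rgs4 was 0.67 and 1.20 higher in CA1, and Kcnj6, a subunit of G protein-gated potassium channels, was at -0.65 in CA3 against DG. Ngfr, a neurotrophin receptor found on cholinergic axons, was called higher in CA1 (0.91) and CA3 (0.74) than in DG.

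To ask whether cholinergic transcripts followed age, aged rats (n = 24) were compared with young rats (n = 10) within each subfield. No member was called in any subfield, where 0.851% of genes were called in CA1, 0.402% in CA3 and 1.09% in DG. No member reached an unadjusted limma p under 0.05 in the Illumina table either, where 6.15% of genes did so in CA1, 3.31% in CA3 and 5.2% in DG. The largest absolute log2 change was 0.21 in CA1, 0.14 in CA3 and 0.25 in DG. The 95% intervals bound what could have been missed. For Chrnb2 in DG the change was 0.06 with an interval from -0.04 to 0.15, and for Ache in CA1 0.01 with an interval from -0.16 to 0.17. For Chrna5 the intervals were wide, from -0.56 to 0.97 in CA1 and from -1.04 to 0.80 in CA3.

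The ranges of young and aged rats overlapped for every member tested. Chrm1 in CA1 ran from 1132 to 1776 with a median of 1481 in young rats and from 762 to 2022 with a median of 1342 in aged rats. Chrna7 in CA1 had medians of 304 and 299, and Ache in DG of 466 and 520. Unimpaired or impaired rats alone against young rats also gave 0 calls among the members in every subfield. In CA1 these comparisons called 0.621% and 1.23% of genes, in CA3 0.394% and 0.28%, and in DG 0.635% and 0.968%.

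**Figure D4:**
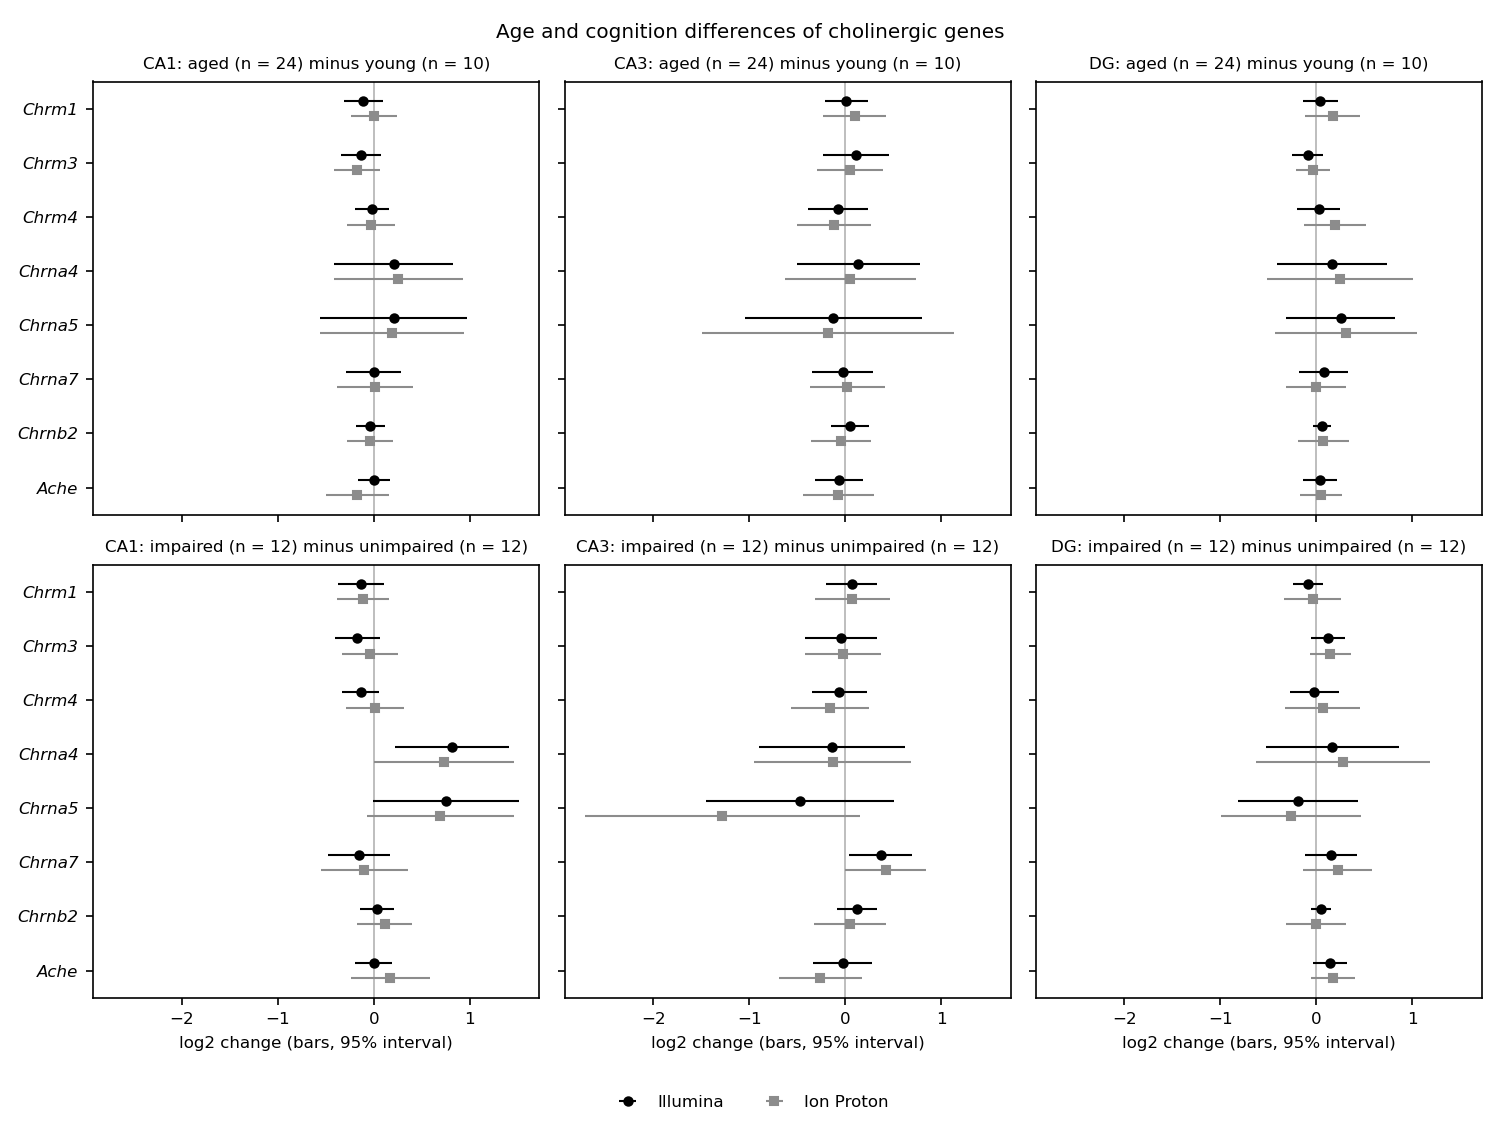
Log2 change (horizontal axis, bars are 95% intervals) of 8 cholinergic genes for aged against young rats (top) and impaired against unimpaired aged rats (bottom) in each subfield, in both tables. Chrna4 in CA1 is the only member called, at 0.81 in impaired rats.

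To ask whether they followed memory performance, impaired (n = 12) and unimpaired aged rats (n = 12) were compared. In CA1 1 of 8 members was called, against 0.635% of genes. This was Chrna4, whose level ran from 56.5 to 360 with a median of 184 in unimpaired rats and from 116 to 590 with a median of 306 in impaired rats. Young rats ran from 56.3 to 473 with a median of 246. The ranges of the aged groups overlapped, and 10 of 12 impaired rats lay above the unimpaired median. The log2 change was 0.81 (SE 0.29, 95% interval 0.22 to 1.4, unadjusted limma p = 0.00907), with 0.73 in the Ion Proton table (one-sided p = 0.0246).

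This call did not survive adjustment over all genes (limma adjusted p = 0.652), and no gene of 14205 did so in CA1, while 5.71% had an unadjusted p under 0.05. The call was lost when any of 17 of the 24 aged rats was left out, with log2 changes from 0.67 to 0.83 in those fits. It was also lost without the libraries nearer to another subfield (0.71), within the lower (0.66) and the upper series (0.93), and with edgeR on the recovered reads (0.77). The sign was the same in each, and with DESeq2 on the recovered reads the call held (0.77). No gene of the marker lists was called in this comparison. The median log2 change of a list ran from -0.56 for choroid plexus to 0.50 for leptomeninges, and was 0.32 for dentate granule cells, 0.23 for medial habenula and thalamus, 0.12 for subiculum and 0.06 for CA1 pyramidal cells, whose summed level had a median of 16867 in unimpaired and 14324 in impaired rats. The 1 CA1 library nearer to another subfield came from an unimpaired rat. Its markers summed to 2956 for CA1 pyramidal cells, 20123 for striatum and 284 for cholinergic neurons. The part of these markers in this result was not tested.

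Chrna5 in CA1 was not called. Its level ran from 14.5 to 234 with a median of 117 in unimpaired rats and from 35.8 to 301 with a median of 159 in impaired rats. The log2 change was 0.76 (SE 0.37, unadjusted limma p = 0.0509), with 0.70 in the Ion Proton table (unadjusted p = 0.0726). The other 6 members in CA1 had log2 changes between -0.17 and 0.04.

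**Figure D5:**
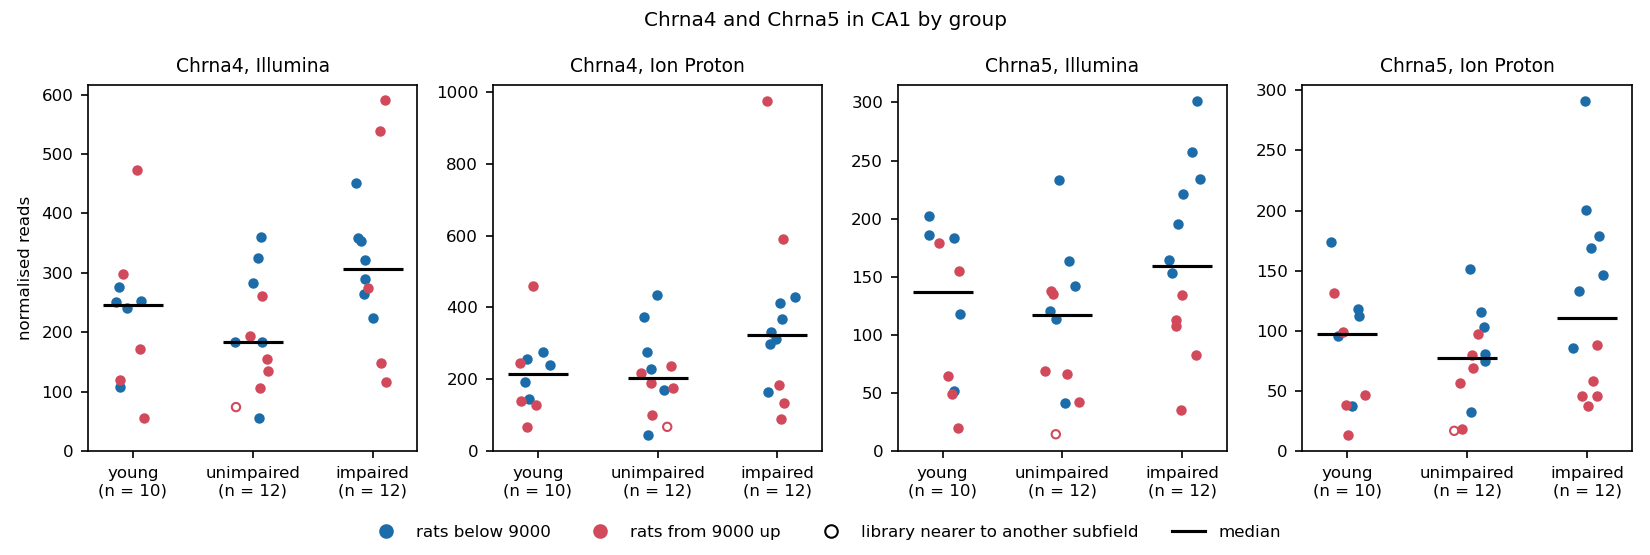
Normalised reads (vertical axis) of Chrna4 and Chrna5 in CA1 of young, aged unimpaired and aged impaired rats in both tables, coloured by number series, with black lines for medians. Medians of Chrna4 in the Illumina table were 246, 184 and 306.

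In CA3 and DG no member was called for cognition, where 0.0216% and 0.124% of genes were. Chrna7 in CA3 ran from 174 to 574 with a median of 377 in unimpaired rats and from 372 to 603 with a median of 475 in impaired rats. The log2 change was 0.37 (SE 0.16, unadjusted limma p = 0.0286), with 0.42 in the Ion Proton table (unadjusted p = 0.0482), and it was called within the upper series alone (0.78), while in the lower it was -0.04. Of the CA3 libraries of the upper series, 3 of 5 from impaired and 1 of 6 from unimpaired rats were nearer to another subfield. Over all rats without such libraries the change was 0.28. Chrna5 in CA3 was -0.47 (SE 0.48) with an interval from -1.45 to 0.51. In the Ion Proton table it was -1.28 (unadjusted limma p = 0.078), and by the WT values -0.16. In DG the changes lay between -0.19 and 0.17, the latter that of Chrna4, with an interval from -0.52 to 0.86.

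Whether these effects differed between subfields was tested as an interaction. For age and for cognition 0 members and 0% of 14179 genes passed an adjusted limma p under 0.05. Without adjustment, the cognition effects of Chrna4 (0.95, p = 0.0473), Chrna5 (1.23, p = 0.0405) and Chrna7 (-0.52, p = 0.0193) differed between CA1 and CA3 at p under 0.05, where 5.22% of genes did. In the Ion Proton table the same differences were 0.87 (p = 0.122), 1.97 (p = 0.00952) and -0.52 (p = 0.0676), and by the WT values they were 0.78 (p = 0.111), 0.64 (p = 0.309) and -0.23 (p = 0.251). No gene of the lists of other receptor subunits, synthesis, modulators and signalling was called for age in any subfield. Of all genes, 0.851% were called for age in CA1, 0.402% in CA3 and 1.09% in DG. For cognition, Lypd1, a modulator of nicotinic receptors, was called in CA1 (0.46, limma adjusted p = 0.523) and Kcnq5 in DG (0.36, adjusted p = 0.999). Lypd1 was 1 of 8 modulators tested, where 0.635% of all genes were called. Kcnq5 was 1 of 17 signalling genes tested, where 0.124% were.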

How the data were processed

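The deposited values of each table were counts that the authors divided by a DESeq2 size factor per library, a normalised signal. For the Illumina table the authors trimmed reads (cutadapt 1.8.3), aligned them to rn5 (STAR 2.5) and counted them (featureCounts 1.4.4). For Ion Proton reads the aligners were TopHat2 and Bowtie2, with the same build and counter. How the third, WT table was made is not given in the sources used here, and it served only as an alternative. The labels and the methods name different library kits, so strand is unknown. Each table was tested on its own.

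Genes with a mean of at least 10 were tested on log2(value + 1) with limma 3.58.1 (R 4.3.3) and a trend of variance on mean, with Benjamini-Hochberg adjustment over all genes. Call rules followed the study's methods, which used DESeq2. Whole reads were recovered for 100% of values (within 0.001 of a read) and tested with edgeR 4.0.16 and DESeq2 1.42.0 as alternatives. Other alternatives were a pseudocount of 0.1, no filter, quantile normalisation, each number series, the series as a covariate, each rat left out, and fits without 7 deeply sequenced rats (over 25 M reads in each Illumina library) or without the 11 libraries nearer to another subfield. The rat paired the libraries of the 3 subfields. Deviations from group means correlated with a median r of 0.0997 in libraries of the same rat (51 of 102 pairs over 0.1). In those of different rats the median r was -0.0047 (1082 of 3366 pairs over 0.1). Scripts were tested on simulated data.

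Every member was named. Of the other lists, the rule named each receptor subunit or enzyme with a mean of at least 10 and up to 3 other called genes with the largest changes, and for each member the 2 genes of highest Pearson r on log2(value + 1) over the Illumina libraries. Chrna3, Chrnb4, Chat and further called modulators of nicotinic receptors were added after their values were seen. Members and lists were chosen with earlier results of these data known. A gene of another list is not reported here.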

Additional observations from a re-analysis of the deposited data

Results flagged for a closer look

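In the groups of 10 young rats, the highest or lowest value of a member was tested against Dixon's 95% critical value. This was done in 48 groups of both poly-A tables, and 6 (12.5%) exceeded it. Chance gives about 5% for independent groups of normal values. These groups shared rats between members and tables, so the 6 do not measure an excess. A young rat of the upper series gave 2 of them, both in DG of the Illumina table, with the lowest Chrm1 (758.8 normalised reads, the next being 1431) and the highest Ache (750.3, next 563.3). In this library, which was nearest to DG by markers, dentate granule markers summed to 1384 (median of DG 5109), those of cholinergic neurons to 326, the highest of all libraries, those of medial habenula and thalamus to 1284 and those of choroid plexus to 3783, and their part was not tested. Another young rat of the upper series gave the highest Chrna5 in CA3 in both tables, 272 (next 132.6) in the Illumina and 213.7 (next 85.93) in the Ion Proton table, and this library is 1 of those nearer to another subfield by markers. A young rat of the lower series had the highest Chrna7 in DG in the Illumina table (741, next 510.9), and a young rat of the upper series the highest Chrna4 in CA1 in the Ion Proton table (459.7, next 275.3). The groups of 12 aged rats were not tested in this way.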

How the results depend on the processing

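Of 2640 results of single members under alternatives, 26 lost a call, 32 gained one, and 9 changed sign with a call in at least 1 of the fits compared. A further 321 changed sign with no call in either fit. Of the results with no call in either fit, 8 moved by more than the spread between rats. The 9 all came from fits to 1 number series. In the lower series Chrm3 in CA1 against CA3 was -0.22, with or without the libraries nearer to another subfield, Chrm4 in CA3 against DG was -0.046 with and -0.0079 without them, and Chrna5 in CA3 against DG was -0.51. In the upper series Chrna5 in CA1 against CA3 was -0.58 with or without them, and Ache in CA3 against DG was -0.082 with and -0.12 without them. Members called numbered 3 in CA1 against CA3 and 5 in the lower series (21.8% of all genes there), also without those libraries, and 5 in CA3 against DG and 2 in the lower series (23.4% of genes), also without them. The fits to a series without those libraries and the test between series were chosen after seeing the data. With the rat as a replicate block, the count of called members was 3 in CA1 against CA3 (16.1% of genes), 5 in CA1 against DG (29.8%) and 7 in CA3 against DG (31.4%), where the calls added to the 5 were Chrna7 and Chrnb2.

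The count of members called for cognition in CA1, 1 with Chrna4, fell to 0 without the libraries nearer to another subfield, without deeply sequenced rats (log2 change 0.67), with the series as a covariate (0.78), in either series, with edgeR with or without those libraries (0.77 and 0.69), by the Ion Proton table alone (0.73), by the WT table alone (0.73) and, as the lowest of 0 to 1, with 1 rat left out. A fit to 1 series holds fewer rats. In CA3 the count of 0 became 1, Chrna7, in the upper series. The cause of these changes was not tested. Chrm2 had too few reads in the Illumina table for a test, although that table was the deeper.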
